A study of Mus musculus with 8 samples.

Results

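Complement is a protein cascade of innate immunity, and 8 of its genes were followed in mouse retina: C1qa, C1qb, C1qc, C2, C3, C4b, Cfb and Serping1. They were taken by symbol from a table of 26824 genes, and all 8 were present and passed the filter on low counts. The 3 WT and 5 KO retina libraries came from mice aged 1 month, and each library pooled 2 retinas of a single mouse. The KO animals are labelled Kv8.2 KO. Kv8.2, encoded by Kcnv2, is a subunit of potassium channels in rods and cones and works only in company with other channel subunits. The mice received no treatment. The strain, the design of the allele and the sex are not given in the sources used here. The submitters tested 3 of the KO samples without naming them, so every comparison below uses all 5, numbered KO 2 to KO 6, unless stated.

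The classical pathway starts when C1q, built from A, B and C chains, binds its target and activates the proteases C1r and C1s. These cleave C4 and C2, and the fragments form an enzyme that cleaves C3, the step on which all complement pathways converge. Factor B (Cfb) forms the equivalent enzyme of the alternative pathway, and the C1 inhibitor encoded by Serping1 blocks C1r and C1s. In the central nervous system C1q comes mainly from microglia. C3 and C4 are made by several cell types, glia among them, and the liver is the main source of the complement proteins in blood.

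Mouse has a second C4 gene, C4a, whose transcript is nearly the same as that of C4b, so the extent to which reads can be assigned to C4b matters for its count. Over 5367 aligned bases the longest annotated transcripts of C4b and C4a were 96.1% identical, and the longest identical run was 433 bases. Of all 31-base words in C4b transcripts, 48.3% also occur in C4a. The 60 coding bases in which they differ most are printed here with the 13 differing bases in capitals, from bases 2761 to 2820 of the C4b transcript and bases 2755 to 2814 of the C4a transcript.
C4b: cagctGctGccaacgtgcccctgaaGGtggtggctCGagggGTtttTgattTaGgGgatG
C4a: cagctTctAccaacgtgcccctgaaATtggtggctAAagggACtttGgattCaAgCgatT

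In GRCm38 with the GENCODE M21 annotation, C4b lies on the minus strand at chr17:34728380-34743882 and C4a nearby at chr17:34809092-34823464. Cfb (chr17:34856374-34862518) and C2 (chr17:34862604-34898265) follow on the same strand, and C3 is farther along at chr17:57203970-57228136. A read-through gene spans Cfb and part of C2 and carries 75.5% of the 31-base words of Cfb and 40.2% of those of C2, so the counts of these genes are uncertain. C1qb (chr4:136880129-136886187), C1qc (chr4:136889804-136893065) and C1qa (chr4:136895917-136898803) stand side by side on the minus strand. Serping1 is at chr2:84765387-84775444. Neither it nor C3 nor the C1q genes share a 31-base word with another gene.

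Totals were 17759146 to 25188870 counts in a library, so that 3 counts equal 0.130 to 0.164 CPM, where CPM is counts per 1e+06 after TMM scaling. Kcnv2, the gene named by the KO label, was present in every library, averaging 532 ± 16.4 CPM for WT (SD, n = 3) against 450 ± 77.8 CPM for KO (SD, n = 5), with a log2 fold change of -0.24 (adjusted p = 0.275, edgeR). Its gene count therefore does not identify the libraries labelled KO, and each direction rests on the labels. The first principal component, with 39.5% of the variance, put KO 4 to KO 6 (45.7 to 58.1) apart from the other 5 libraries (-40.2 to -11.9). The labels name no batch, and KO 4 to KO 6 have no WT library beside them, so this separation and the genotype cannot be told apart there. Mitochondrial transcripts made up 7.09% to 7.92% of the WT libraries, 5.23% of KO 3, 6.52% of KO 2 and 3.03% to 3.70% of KO 4 to KO 6, with 95% Wilson intervals running from 3.02% for KO 6 to 7.93% for WT 2. WT 3 had 9 Xist and 2132 Ddx3y counts, where every other library had 30144 to 59443 and 1 to 3. KO 3 held 51500 CPM of 15 lens genes, against 2.0 to 1720 CPM in the others. The part of these differences in the complement values was not tested, and C4b had a log2 fold change of 2.56 without KO 3 (adjusted p = 0.000653, edgeR).

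C4b rose in the libraries labelled KO and had the largest log2 fold change of the 8 genes, and Serping1 rose by a smaller amount. The test called no gene of the 8 lower. Of the 8 members, 2 were called higher at an adjusted p-value under 0.05 in edgeR's quasi-likelihood test, where 4.74% of all 20167 tested genes were called higher and 2.84% lower. At an unadjusted p-value under 0.05, 4 members were higher and 0 lower, against 15.1% and 12.2% of all genes. DESeq2 called 3 members higher and 0 lower, against 9.72% and 5.79% of all genes. With limma voom 5 were higher and 0 lower, against 20.3% and 20.6% of all genes. The log2 fold change was above 0 for 7 of the 8, with a median of 0.54 against 0.00 over all genes. Every KO library lay above every WT library for 4 members, C1qb, C4b, Cfb and Serping1, and for 10.8% of all tested genes.

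**Figure D1:**
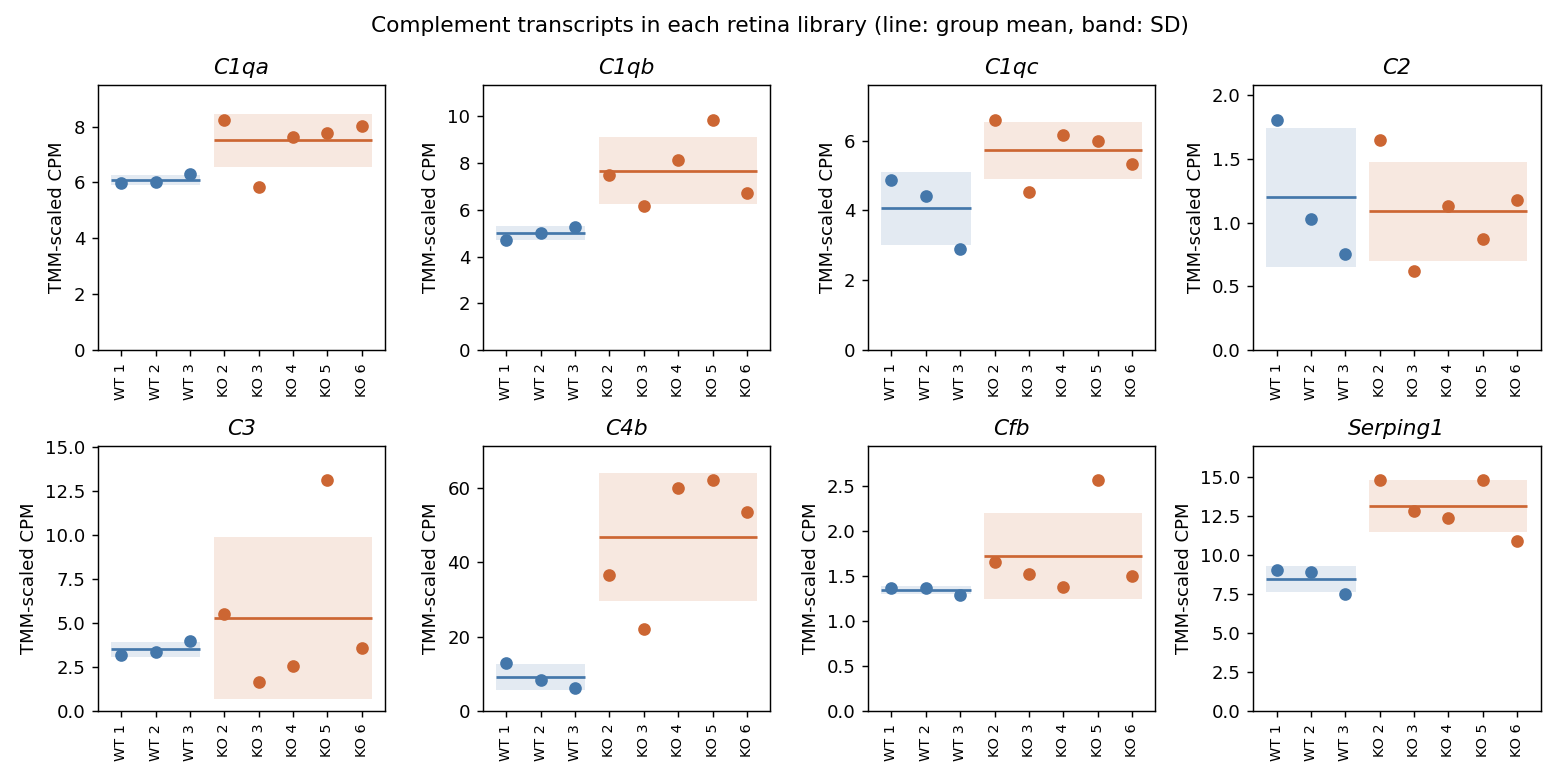
Level of each of the 8 complement genes in each retina library, in counts of the gene for each 1e+06 counts after TMM scaling (CPM), with a line at the group mean and a band of 1 SD. C4b stands at 6.08 to 12.8 CPM in the WT libraries and at 21.9 to 62.0 CPM in the KO libraries, while C2 overlaps between the groups.

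C4b encodes complement C4, which is cleaved by the activated C1 complex. WT 1, WT 2 and WT 3 held 12.8, 8.42 and 6.08 CPM. In KO 2 to KO 6 it was 36.6, 21.9, 59.8, 62.0 and 53.5 CPM. The groups did not overlap, KO 3 was the lowest of the KO libraries, and KO 4, KO 5 and KO 6 were the highest. WT averaged 9.11 ± 3.43 CPM (SD, n = 3) against 46.7 ± 17.1 CPM for KO (SD, n = 5), a ratio of 5.13. The log2 fold change of 2.36 (SE 0.36) had an adjusted p-value of 0.00759 in edgeR's quasi-likelihood test, the 140th smallest p-value among all genes. The count behind these levels ran from 137 to 1215.

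KO 4, KO 5 and KO 6 stood apart from the other 5 libraries across the whole transcriptome, so C4b was also compared with them left out. KO 2 and KO 3 against WT gave a log2 fold change of 1.69 (SE 0.30, adjusted p = 0.0478, edgeR), a comparison in which 0.624% of all genes were called higher. KO 4 to KO 6 against the same WT libraries gave 2.71 (SE 0.18, adjusted p = 7.65e-07, edgeR), where 22.3% of all genes were called higher. C4b was called in all 10 comparisons of 3 KO libraries with WT and in 7 of the 8 fits that left out 1 library. Without WT 2 it missed the threshold, with a log2 fold change of 2.32 and an adjusted p-value of 0.0609 in edgeR.

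C4a, known as sex-limited protein, was not called. It stood at 1.54, 1.83 and 2.18 CPM in WT and at 0.998, 1.38, 1.82, 1.89 and 1.82 CPM in KO 2 to KO 6. All but 2 of the KO values lie inside the WT range, and those 2, in KO 2 and KO 3, are below it. WT averaged 1.85 ± 0.321 CPM (SD, n = 3) against 1.58 ± 0.385 CPM for KO (SD, n = 5), with a log2 fold change of -0.23 (SE 0.27, adjusted p = 0.612, edgeR). Reads that fit both C4 genes could have been divided between them by the counting, so the C4a level has this limit too. Without WT 3, the library with Y-linked transcripts, the C4b log2 fold change was 2.14 (adjusted p = 0.0497, edgeR).

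Serping1 encodes the C1 inhibitor, which holds back the first step of the classical pathway. WT 1, WT 2 and WT 3 held 9.05, 8.89 and 7.50 CPM, and KO 2 to KO 6 held 14.8, 12.8, 12.4, 14.8 and 10.9 CPM. The groups did not overlap, with KO 6 closest to WT. WT averaged 8.48 ± 0.848 CPM (SD, n = 3) against 13.1 ± 1.70 CPM for KO (SD, n = 5), a ratio of 1.55. The log2 fold change of 0.63 (SE 0.14) had an adjusted p-value of 0.0313 in edgeR's quasi-likelihood test.

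The log2 fold change of Serping1 was 0.71 (SE 0.15, adjusted p = 0.082, edgeR) in KO 2 and KO 3 and 0.59 (SE 0.14, adjusted p = 0.00451, edgeR) in KO 4 to KO 6, both against the same WT libraries. The call was lost without WT 1, WT 2, WT 3, KO 4 or KO 5, where the edgeR adjusted p-value was 0.113, 0.118, 0.126, 0.065 and 0.0733. It was also lost with an offset for the GC content of genes, which gave 0.48 (adjusted p = 0.0703, edgeR).

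**Figure D2:**
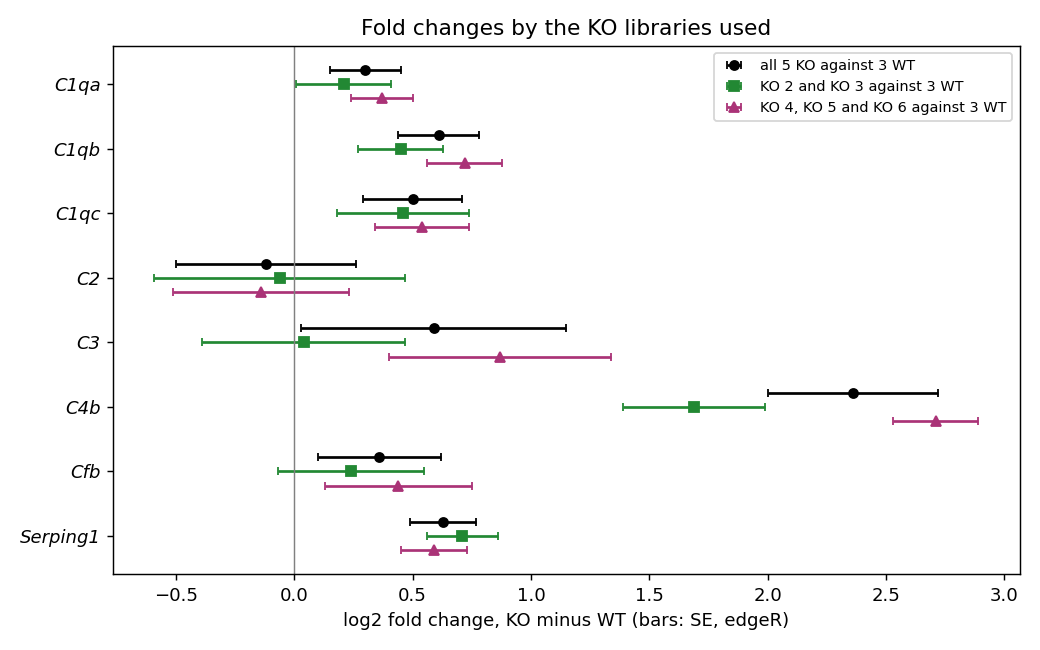
Log2 fold change of each complement gene, KO minus WT, with bars of 1 SE from the edgeR fit, drawn once with every library, once with only KO 2 and KO 3, and once with only KO 4 to KO 6. C4b lies at 2.36 with all libraries, 1.69 with KO 2 and KO 3 and 2.71 with KO 4 to KO 6, and no other member exceeds 0.87.

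The C1q chains form the recognition part of the C1 complex, and C1qb came closest to the threshold. WT 1, WT 2 and WT 3 held 4.71, 5.03 and 5.28 CPM, and KO 2 to KO 6 held 7.47, 6.18, 8.13, 9.86 and 6.74 CPM. No KO library reached down to the WT values, and KO 3 was again the lowest of its group. WT averaged 5.01 ± 0.285 CPM (SD, n = 3) against 7.68 ± 1.43 CPM for KO (SD, n = 5). This is a log2 fold change of 0.61 (SE 0.17), and with an adjusted p-value of 0.0577 in edgeR's quasi-likelihood test it missed the threshold. DESeq2 and limma voom put it past the threshold, with adjusted p-values of 0.015 and 0.00275, as did edgeR without KO 3, with 0.0174. Without WT 1, WT 2 or WT 3 the edgeR adjusted p-value was 0.199, 0.187 and 0.141, and with an offset for the GC content of genes the log2 fold change was 0.38 (adjusted p = 0.149, edgeR).

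C1qa encodes the A chain. WT 1, WT 2 and WT 3 held 5.98, 6.02 and 6.31 CPM, and KO 2 to KO 6 held 8.25, 5.85, 7.63, 7.77 and 8.02 CPM. KO 3 lay below every WT library, while the other 4 KO libraries lay above all of them. WT averaged 6.10 ± 0.179 CPM (SD, n = 3) against 7.50 ± 0.955 CPM for KO (SD, n = 5), with a log2 fold change of 0.30 (SE 0.15, adjusted p = 0.222, edgeR). With the GC offset the log2 fold change was 0.04.

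C1qc, the gene of the C chain, measured 4.88, 4.42 and 2.89 CPM in the libraries WT 1 to WT 3, and 6.60, 4.52, 6.16, 5.98 and 5.33 CPM in KO 2 to KO 6. The KO 3 value fell inside the WT range and the other 4 lay above it. WT averaged 4.06 ± 1.04 CPM (SD, n = 3) against 5.72 ± 0.811 CPM for KO (SD, n = 5), with a log2 fold change of 0.50 (SE 0.21, adjusted p = 0.151, edgeR), and of 0.28 with the GC offset. All C1q chains were past the threshold when KO 4 to KO 6 alone were set against WT, with edgeR adjusted p-values of 0.0365 for C1qa, 0.00323 for C1qb and 0.0442 for C1qc. Their log2 fold changes were 0.37, 0.72 and 0.54, in a comparison that called 22.3% of all genes higher. With KO 2 and KO 3 alone, where 0.624% of all genes were called higher, the log2 fold changes were 0.21, 0.45 and 0.46, and the edgeR adjusted p-values were 0.597, 0.24 and 0.401.

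As the C1q genes are neighbours, their promoters are shown where RefSeq gives one, which is so for C1qb and C1qc. Among the 8 members 3 have a promoter in the RefSeq table for GRCm38.p6, the third being C3. The 250 bases before the RefSeq start site on the minus strand were searched, chr4:136886201-136886450 for C1qb and chr4:136892915-136893164 for C1qc. The GENCODE gene of C1qc begins before the RefSeq start, and 151 bases of its window lie inside that gene. For C1qc the 99 bases outside it are printed, chr4:136893066-136893164. Capitals mark the only motif match.
C1qb: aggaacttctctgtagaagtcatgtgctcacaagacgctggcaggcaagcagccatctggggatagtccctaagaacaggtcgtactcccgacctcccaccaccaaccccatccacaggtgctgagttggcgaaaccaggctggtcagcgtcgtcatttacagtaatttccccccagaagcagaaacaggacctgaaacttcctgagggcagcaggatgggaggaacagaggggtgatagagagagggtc
C1qc: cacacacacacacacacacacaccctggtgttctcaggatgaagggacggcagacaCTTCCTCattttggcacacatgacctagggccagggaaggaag

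The match in C1qc is to GAGGAAG, the letters searched for PU.1, a transcription factor of myeloid cells, read on the opposite strand. These letters occur on either strand in 10.6% of the 32851 RefSeq promoter windows of the same length. The other motifs searched on both strands were TTCNNNGAA for STAT factors, TTGCNNCAA for C/EBP, GAAANNGAA for IRF, GGGNNTTCC for NF-kB and TATAAA for the TATA box. None of these occurs in the windows of C1qb, C1qc or C3, and they occur in 7.02%, 1.74%, 7.13%, 4.98% and 12.4% of all windows. A match is a run of letters and not a binding site.

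C3 is the central component that both pathways cleave. WT 1, WT 2 and WT 3 held 3.18, 3.34 and 4.0 CPM, and KO 2 to KO 6 held 5.51, 1.66, 2.56, 13.1 and 3.55 CPM. KO 3 and KO 4 lay below all WT libraries and KO 2 and KO 5 above them, with KO 5 far higher than the rest. WT averaged 3.51 ± 0.433 CPM (SD, n = 3) against 5.29 ± 4.62 CPM for KO (SD, n = 5), with a log2 fold change of 0.59 (SE 0.56, adjusted p = 0.53, edgeR). Without KO 5 the log2 fold change was -0.07.

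KO 5 also held the most transcripts of liver proteins. The summed level of 12 liver genes, albumin (Alb) among them and listed after the data were seen, was 136 CPM in KO 5 and 0.571 to 19.2 CPM in the other 7 libraries. Alb had 1479 counts in KO 5 and 0 to 209 in each of the others. Hc, the gene of complement C5, had 20 counts in KO 5 and 0 to 2 elsewhere, and was too low to test. KO 5 also had the highest level of C4b, C1qb and Cfb. Without KO 5 the log2 fold change of C4b was 2.24 (adjusted p = 0.0193, edgeR) and that of Serping1 0.59 (adjusted p = 0.0733, edgeR). The part of the liver transcripts in the level of C3 or of any other member in KO 5 was not tested.

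Cfb, the gene of factor B, measured 1.37, 1.36 and 1.29 CPM in the libraries WT 1 to WT 3, and 1.65, 1.52, 1.38, 2.56 and 1.5 CPM in KO 2 to KO 6. The groups did not overlap, but KO 4 and WT 1 nearly touched, and KO 5 stood above the rest as it did for C3. WT averaged 1.34 ± 0.0459 CPM (SD, n = 3) against 1.72 ± 0.476 CPM for KO (SD, n = 5). This is a log2 fold change of 0.36 (SE 0.26), which did not pass the threshold (adjusted p = 0.405, edgeR). Cfb rested on 25 to 50 counts in a library.

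C2 encodes the protease that joins C4 in the enzyme that cleaves C3. It held 1.81, 1.03 and 0.755 CPM in the libraries WT 1 to WT 3 and 1.65, 0.618, 1.13, 0.869 and 1.18 CPM in KO 2 to KO 6. The groups overlapped almost fully. WT averaged 1.20 ± 0.546 CPM (SD, n = 3) against 1.09 ± 0.386 CPM for KO (SD, n = 5), with a log2 fold change of -0.12 (SE 0.38, adjusted p = 0.873, edgeR). C2 rested on 13 to 38 counts in a library.

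To compare genes with each other, levels were divided by the length of the longest annotated coding transcript in kilobases. In WT the order in CPM per kilobase was C1qa 5.87, Serping1 4.80, C1qb 4.60, C1qc 3.38, C4b 1.69, C3 0.682, Cfb 0.487 and C2 0.454. Serping1 and C1qb were closer to each other than their SDs of 0.479 and 0.262, and Cfb and C2 were closer than the C2 SD of 0.207. On average over the KO libraries, C4b came first with 8.69 ± 3.18 CPM per kilobase (SD, n = 5), next to Serping1 at 7.43, C1qa at 7.21 and C1qb at 7.06, and these first 4 did not differ beyond their spread. C4b came first in KO 4 to KO 6, at 9.94 to 11.5 CPM per kilobase, but not in KO 2 or KO 3. In KO 2 its 6.80 was below Serping1, C1qa and C1qb at 8.40, 7.93 and 6.86 CPM per kilobase, and in KO 3 its 4.07 was below their 7.23, 5.62 and 5.68. C1qc at 4.75, C3 at 1.03, Cfb at 0.626 and C2 at 0.413 followed. The 8 levels summed to 34.1 to 43.8 CPM in the WT libraries and to 55.0 to 117 CPM in the KO libraries.

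Across the 8 libraries, which share the group difference and the split of KO 4 to KO 6 from the rest, the log2 CPM of C4b varied most closely with that of C1qb, with a Pearson correlation of 0.88. It was 0.85 with C1qc, 0.84 with Serping1 and 0.81 with C1qa, but 0.30 with C3 and 0.15 with C2. C3 varied most closely with Cfb, at 0.80, and both were highest in KO 5. C2 had no correlation above 0.50 with any other member. These are descriptions over 8 libraries.

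Among 14891 tested genes whose mean log2 CPM was 1 or more, the 3 most like C4b over the 8 libraries were Fcamr, Axl and Man2b1, with Pearson correlations of 0.994, 0.989 and 0.987. For Serping1 they were Tkt, Aqp1 and Ctnnd1, with 0.982, 0.977 and 0.976. The C1q chains had different closest genes: Gnao1 and Nrp1 for C1qa (0.997 and 0.990), Cog8, Arid5a and Tbc1d30 for C1qb (0.968 to 0.983), and Myorg, AW011738 and Slc16a13 for C1qc (0.952 to 0.970). Lower correlations were found for C2 (Bgn, Zfp30 and Scpep1, 0.851 to 0.929), C3 (Ptpro, Tfcp2 and Slc48a1, 0.900 to 0.913) and Cfb (Dpysl4, Alg9 and Prep, 0.891 to 0.905).

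Of 57 other complement genes listed by role, 41 were in the table and 31 were tested. The edgeR test called 6 of the 31 higher and 0 lower, against 4.74% and 2.84% of all genes, and the median log2 fold change over the 31 was 0.26. At an unadjusted p-value under 0.05, 11 of the 31 were higher and 1 was lower, where the shares over all genes were 15.1% and 12.2%. DESeq2 called 9 higher and 0 lower (9.72% and 5.79% of all genes), and limma voom 11 higher and 4 lower (20.3% and 20.6%). By role, 4 of 16 regulators and 2 of 8 receptors were called higher, against the same 4.74%. None of the 3 initiation genes, the 3 cleavage and alternative pathway genes or the 1 terminal pathway gene was called by edgeR. At an unadjusted p-value under 0.05 these 7 genes gave 1 higher and 0 lower, DESeq2 called 0, and limma voom called 1 lower.

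The regulator with the clearest rise was clusterin (Clu), a chaperone that keeps the terminal complex from inserting into membranes. Clu measured 349, 352 and 314 CPM in the libraries WT 1 to WT 3, and 779, 771, 690, 784 and 660 CPM in KO 2 to KO 6. The lowest KO library was far above the highest WT library. WT averaged 338 ± 20.9 CPM (SD, n = 3) against 737 ± 57.4 CPM for KO (SD, n = 5), with a log2 fold change of 1.12 (SE 0.11, adjusted p = 0.000726, edgeR). Clu was called in all 8 fits without 1 library and in all 10 comparisons of 3 KO libraries with WT, and at 1.20 (adjusted p = 0.00701, edgeR) with KO 2 and KO 3 alone. A fit of only WT 2, WT 3, KO 2 and KO 3, paired by number, put it at 1.22 and did not call it (adjusted p = 0.0755, edgeR).

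Cd59a, which blocks the membrane attack complex, rose from 50.5 ± 6.14 CPM (SD, n = 3) to 70.6 ± 7.38 CPM (SD, n = 5), a log2 fold change of 0.49 (adjusted p = 0.031, edgeR). The Sez6 family consists of neuronal membrane proteins with complement control domains, and Sez6 and Sez6l rose by 0.54 and 0.58 on the log2 scale (adjusted p = 0.0496 and 0.0252, edgeR). With the GC offset these were 0.28 and 0.38 (adjusted p = 0.0487 and 0.0131, edgeR). Sez6l2, the other tested gene of the family, was at 0.55 and was not called (adjusted p = 0.0654, edgeR). Among receptors, Lrp1, a broad scavenger receptor, rose by 0.71 (adjusted p = 0.0403, edgeR). Megf10, a phagocytic receptor of glia that binds C1q, rose by 0.52 (adjusted p = 0.0254, edgeR). With KO 2 and KO 3 alone the log2 fold change was 0.42 for Cd59a, 0.24 for Sez6, 0.35 for Sez6l, 0.38 for Lrp1 and 0.38 for Megf10. None of these 5 was called there, with edgeR adjusted p-values from 0.137 to 0.235. Of the 8 fits without 1 library, Sez6l was called in 3 and each of the other 4 in 2. With library size alone Sez6 and Lrp1 were not called (adjusted p = 0.0851 and 0.0681, edgeR), nor was Lrp1 with the GC offset (adjusted p = 0.0542, edgeR) or Sez6 with no filter (adjusted p = 0.0574, edgeR).

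Factor I (Cfi), the protease that cuts C3b and C4b, averaged 0.940 ± 0.527 CPM for WT (SD, n = 3) and 2.69 ± 1.21 CPM in KO (SD, n = 5), with a log2 fold change of 1.53 (SE 0.48, adjusted p = 0.0726, edgeR), which missed the threshold. Cfi overlapped between groups, KO 6 at 1.18 CPM lying below WT 1 at 1.54 CPM. Cfi was picked for mention after its values were seen.

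**Figure D3:**
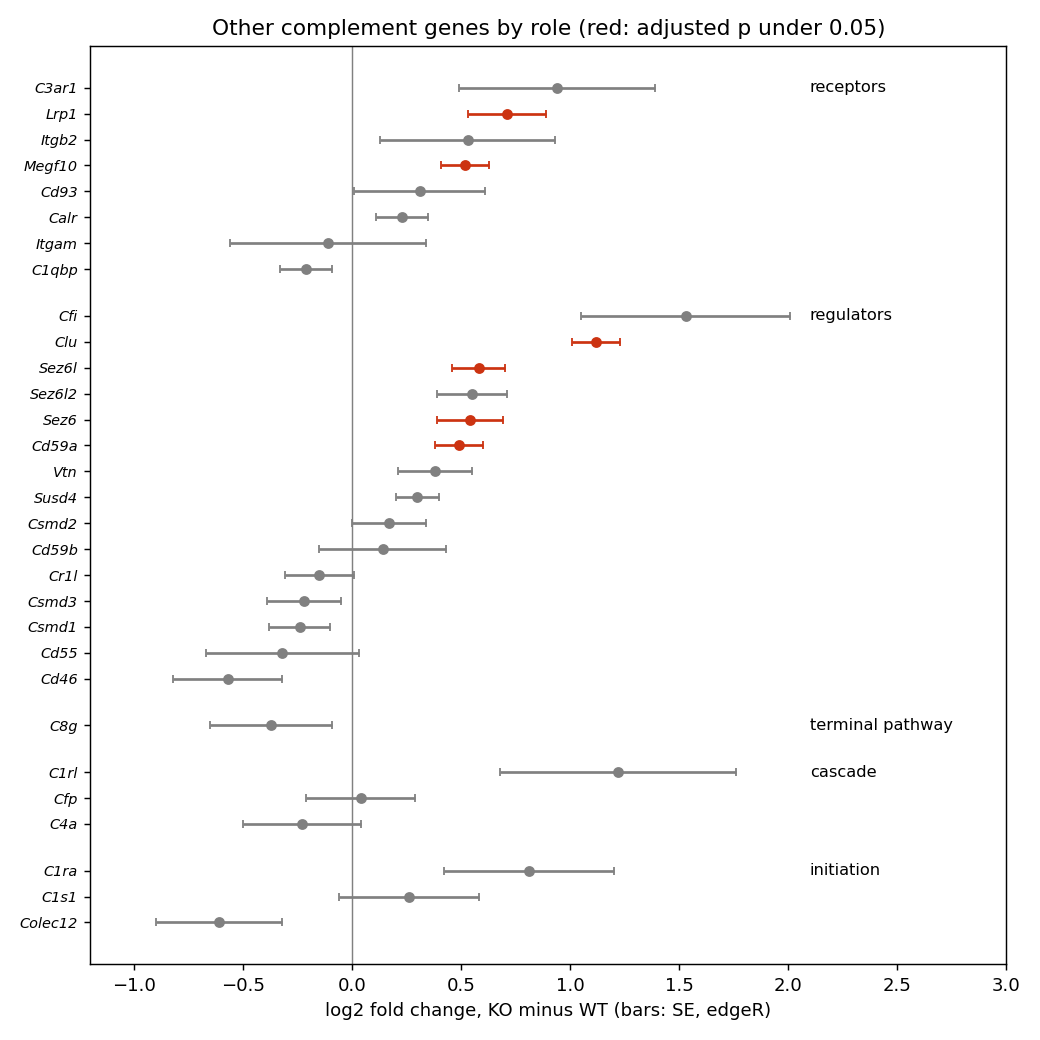
Log2 fold change, KO minus WT, of tested complement genes outside the 8 members, grouped by role, with bars of 1 SE and those at an edgeR adjusted p-value under 0.05 in red. The 6 red points are Clu, Cd59a, Sez6, Sez6l, Lrp1 and Megf10, all above 0.

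Because C1q is made mainly by microglia, microglial transcripts were read beside it. In bulk retina, more cells of a type and more RNA in each cell cannot be told apart. Of 14 tested microglial genes, 2 were called higher and 0 lower by edgeR, against 4.74% and 2.84% of all genes, and the median log2 fold change was 0.42. At an unadjusted p-value under 0.05, 4 were higher and 0 lower, DESeq2 called 4 higher and 0 lower, and limma voom called 6 higher and 0 lower, while these rules put 15.1%, 9.72% and 20.3% of all genes higher. Called were Tmem119, a microglial membrane protein (0.94, adjusted p = 0.0393, edgeR), and Csf1r, the growth factor receptor on which microglia depend (0.69, adjusted p = 0.0395, edgeR). With KO 2 and KO 3 alone, where 0.624% of all genes were called higher, Tmem119 was at 0.91 and Csf1r at 0.56, and neither was called (adjusted p = 0.193 and 0.209, edgeR). Each was called in 2 of the 8 fits without 1 library. With the GC offset Tmem119 was at 0.69 and Csf1r at 0.52, and neither was called (adjusted p = 0.103 and 0.0548, edgeR).

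The C1q chains summed to 15.6, 15.5 and 14.5 CPM in the libraries WT 1 to WT 3 and to 22.3, 16.5, 21.9, 23.6 and 20.1 CPM in KO 2 to KO 6. The sum of the 14 microglial genes was 68.6 to 75.8 CPM in WT and 83.0 to 116 CPM in KO, above WT in every KO library. KO 3 had the highest microglial sum and the lowest C1q sum among the KO libraries. Sall1 and Olfml3 made up 9.75 and 33.2 CPM of the KO 3 microglial sum, while they averaged 0.909 and 7.72 CPM in WT. The ratio of the C1q sum to the sum of all 14 microglial genes was 0.204 to 0.211 in WT, 0.212 in KO 2, 0.143 in KO 3 and 0.242 to 0.252 in KO 4 to KO 6, so KO 3 was below WT. Without Sall1 and Olfml3, a choice made after their values in KO 3 were seen, it was 0.224 to 0.246 in WT, 0.239 in KO 2, 0.227 in KO 3 and 0.282 to 0.291 in KO 4 to KO 6.

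**Figure D4:**
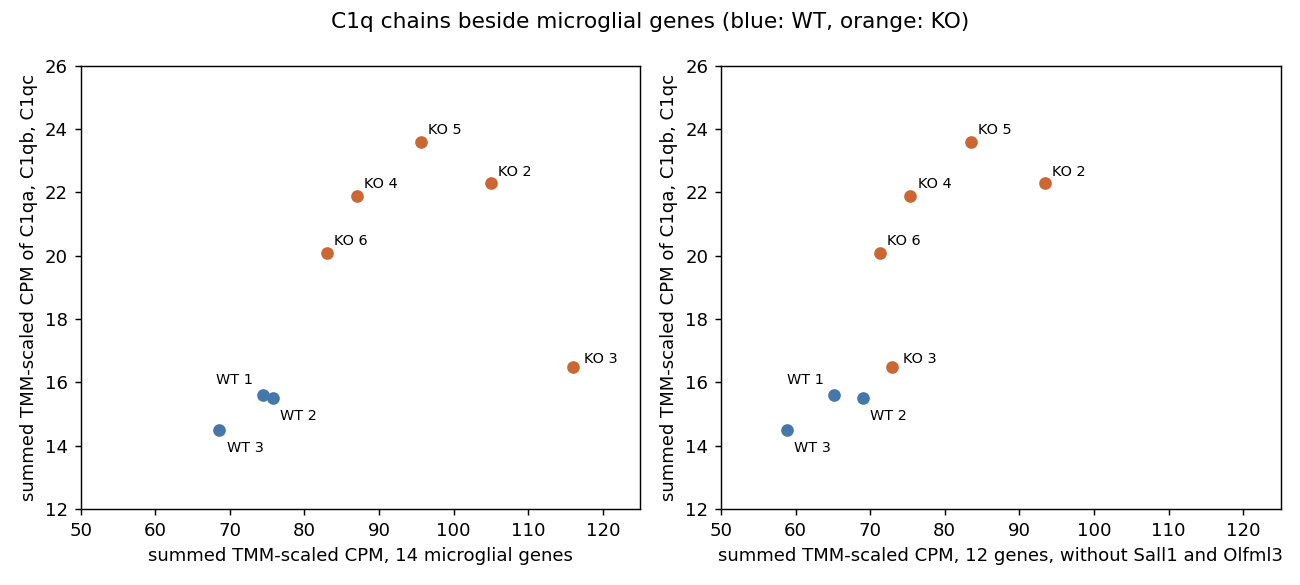
Summed level of the C1q chains beside that of the microglial genes in each library, in TMM-scaled CPM, with WT in blue and KO in orange. WT libraries lie at 14.5 to 15.6 CPM of C1q, and KO 3, at 16.5 CPM, is the KO library nearest to them.

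Markers of other cell types were read beside the members. Of 8 tested genes of monocytes and other macrophages, edgeR called 0, with 0 higher and 4 lower at an unadjusted p-value under 0.05, while DESeq2 called 1 lower and limma voom 5 lower. Over all genes 12.2%, 5.79% and 20.6% were lower by these rules. The 11 genes of this list that had counts, tested or not, summed to 24.0 to 29.0 CPM in WT and 13.6 to 23.1 CPM in KO. Of 12 Müller glia genes, 5 were called higher and 0 lower by edgeR: Sox9 (0.62), Kcnj10 (0.54), Vim (1.18), Abca8a (0.51) and Clu (1.12), in log2 fold change, against 4.74% of all genes. With KO 2 and KO 3 alone Clu was called, while Sox9 (0.62), Kcnj10 (0.53), Vim (1.54) and Abca8a (0.47) were not, with edgeR adjusted p-values of 0.102, 0.158, 0.0808 and 0.145. These 4 were called in 2 or 3 of the 8 fits without 1 library. DESeq2 called 6 higher and 0 lower, and limma voom called 8 higher and 1 lower, against 9.72% and 20.3% of all genes called higher. The Müller glia sum was 5160 to 5420 CPM in WT and 5930 to 8140 CPM in KO. Of 6 astrocyte genes edgeR called 0, against 4.74% of all genes called higher and 2.84% lower. DESeq2 called 1 higher and 0 lower, and limma voom 1 higher and 1 lower, where the shares over all genes were those given above. The astrocyte sum was 132 to 142 CPM in WT, 156 to 167 CPM in KO 2 and KO 3 and 87.7 to 113 CPM in KO 4 to KO 6. Of 10 pigment epithelium genes edgeR called 0, with 2 higher and 0 lower at an unadjusted p-value under 0.05, against 15.1% and 12.2% of all genes. For the same 10 genes DESeq2 called 2 higher and limma voom 3 higher and 3 lower, against 9.72%, 20.3% and 20.6% of all genes. Their sum was 87.8 to 103 CPM in WT and 82.1 to 130 CPM in KO. Whether any of these cells had a part in the C4b or Serping1 difference was not tested.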

How the data were processed

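Total RNA of 8 mouse retina libraries was sequenced. The authors deposited a table of estimated counts per gene as whole numbers, not normalized, and genes with fewer than 16 counts in total do not occur in it. The submitters' processing notes name Trim Galore, Salmon 1.10.2, DESeq2 and the build GRCm38, without roles. The annotation release and strand setting are not given in the sources used here, so counts of overlapping genes are uncertain. Values were used as deposited.

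Genes were kept by filterByExpr in edgeR 4.0.16 (R 4.3.3), which left 20167. Counts were scaled by TMM, all WT and KO libraries were compared by the quasi-likelihood test without covariates, and p-values were adjusted by Benjamini-Hochberg over all tested genes, with a threshold of 0.05. SEs were obtained by dividing each log2 fold change by the root of its F value. Alternatives used DESeq2 1.42.0, limma 3.58.1 voom with quality weights, other scalings and filters, a GC offset, a replicate block and fewer libraries. Of the gene identifiers, 82.5% were in GENCODE M21, which gave lengths, GC content, positions and 31-base words. Alignment used Biopython 1.88.

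The members, gene lists and tests were chosen with earlier results of these data known. Named genes are the members, Kcnv2, C4a, every called gene of the other complement, microglia, macrophage and Müller glia lists, and the 3 genes most like each member. Xist, Ddx3y, Cfi, Alb, Hc, Sall1, Olfml3, C1ql2, C1ql3, Sez6l2, Ctss, Kdr and Pdgfrb fall outside this rule and were chosen after their values were seen. Some genes that met it are not reported here. Liver genes and some fits were added after seeing the data. No pair of libraries of 1 group agreed within sampling noise (chi-square per degree of freedom 5.75 to 118), so each counted as 1 replicate. Each library came from a single mouse, and the p-values measure the spread between libraries. That spread joins differences between mice with the split of KO 4 to KO 6 from KO 2 and KO 3. On simulated counts, 115 of 200 genes changed by 2-fold were called (57.5%), with 6 others, among 19694 tested. Wilson intervals and the floor of 3 counts cover counting error only.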

Additional observations from a re-analysis of the deposited data

Results flagged for a closer look

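In 5 of the 25 quantities scanned over the 5 KO libraries, 1 library lay far from the other 4, the gap to its nearest neighbour being over 0.71 of the range. Chance flags about 1 in 20, but the 25 overlap in their genes, and the liver genes were listed after KO 5 was seen to be high, so the count cannot be set against chance. C1qa was low in KO 3, at 2.57 on the log2 CPM scale (gap 0.774 of the range). Cfb was high in KO 5, at 1.41 (gap 0.713). Vim, an intermediate filament gene of Müller glia and lens, was high in KO 3, at 8.32 (gap 0.752). KO 3 was also apart in its lens transcripts, at 51500 CPM (gap 0.996), and KO 5 in its liver transcripts, at 136 CPM (gap 0.862).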

How the results depend on the processing

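C4b kept its direction in all 28 alternatives and its call in 27, at 1.69 to 2.71. Serping1 kept its direction in all 28 and its call in 13, at 0.48 to 0.75. C2 and C3, never called, turned sign in 6 and 4 alternatives. In the replicate block fit, which used only WT 2, WT 3, KO 2 and KO 3, C2 was at 0.24 and C3 at -0.22. Over the fits that left out 1 or 2 libraries, C2 ran from -0.44 to 0.29 and C3 from -0.43 to 1.07.

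Calls by edgeR with all libraries were 2 members, 6 other complement genes, 2 microglial genes and 1529 genes in all. In the same order, limma voom called 5, 15, 6 and 8248, KO 2 and KO 3 against WT 1, 1, 0 and 180, and KO 4 to KO 6 against WT 5, 17, 6 and 8416. These counts join both directions. With limma voom 4 of the 15 other complement genes and 4164 of all called genes were lower. In KO 4 to KO 6, 5 of the 17 other complement genes, 1 of the 6 microglial genes and 4037 of all called genes were lower. DESeq2 called 4 microglial genes and 3127 in all. Library size alone, no filter and the GC offset each called 1 microglial gene, which was Tmem119, Csf1r and Ctss in turn. The GC offset, and leaving out WT 3 and KO 3 together, each called 1 member. Leaving out 1 or 2 libraries gave 0 to 5 members, 1 to 17 other complement genes, 0 to 6 microglial genes and 118 to 8416 in all. No member was called without WT 2. With TMM 62.5% of called genes were higher, and with library size alone 41.8%. Kcnv2 passed the threshold with limma voom (-0.36), with KO 4 to KO 6 (-0.38) and without KO 2 (-0.35). Without 1 or 2 libraries it ran from -0.38 to -0.15.

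Numbers 2 and 3 occur in both groups, but same-numbered libraries did not deviate together (correlation -0.19). With only these 4 libraries, the replicate block called 1 member, 0 other complement genes, 0 microglial genes and 52 in all, against 0 members and 14 in all for the same libraries with no block. The crossed pairing, tried after seeing the data, called 1, 1, 1 and 527. The causes of these changes were not tested. C2 and Cfb rest on 13 to 50 counts in a library.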

Other observations

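Relatives of C1q that share its globular domain but serve as secreted signals were listed apart from complement. Of 14 tested, edgeR called 2 higher and 0 lower, against 4.74% and 2.84% of all genes, with 3 higher and 1 lower at an unadjusted p-value under 0.05, against 15.1% and 12.2% of all genes. DESeq2 called 2 higher and 0 lower, against 9.72% and 5.79%. With limma voom 3 were higher and 3 lower, against 20.3% and 20.6%. The called genes were C1ql2 and C1ql3, synaptic proteins of neurons, at log2 fold changes of 0.60 and 0.46 (adjusted p = 0.0462 and 0.0437, edgeR). With KO 2 and KO 3 alone they were 0.34 and 0.66 (adjusted p = 0.259 and 0.0272, edgeR).

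Among 11 genes of endothelium and pericytes, edgeR called 2 higher and 0 lower, against 4.74% and 2.84% of all genes. At an unadjusted p-value under 0.05, 3 were higher and 1 lower, against 15.1% and 12.2%. DESeq2 called 2 higher and 0 lower, against 9.72% and 5.79%, and limma voom 6 higher and 1 lower, against 20.3% and 20.6%. Kdr, a receptor for vascular endothelial growth factor, averaged 116 ± 2.96 CPM for WT (SD, n = 3) against 219 ± 36.1 CPM for KO (SD, n = 5), and Pdgfrb, a receptor of pericytes, 10.1 ± 0.688 against 19.3 ± 1.91 CPM.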
